A study of Mus musculus with 4 samples.

Results

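Genes of blood progenitors and fetal haematopoiesis, 10 in all, were followed across dendritic cells (DCs) that had or lacked the microRNA miR-142: the homeobox genes Hoxa9, Hoxa7 and Hoxa10, their cofactor Meis1, the coactivator Eya1, the RNA-binding protein Igf2bp3, the nuclear protein Skida1, the transcription factors Myb and Sox4, and the surface sialomucin Cd34. They are 10 of the 19938 genes that the arrays measured with a probe set of a single gene symbol, and each of the 10 had exactly 1 such probe set. They were put together because several of them differed between the genotypes on these same arrays, so their genotype differences are given as descriptions, with no test. Bone marrow of C57BL/6 mice, either miR-142+/+ (wt) or miR-142-/- (ko), was cultured for 8 days with 200 ng/ml Flt3-L, the cytokine that drives DC formation from progenitors, and all groups share that culture. Cells positive for CD11c were then sorted by FACS into CD4-equivalent DCs, gated as CD172+ CD24low CD11b+, and CD8-equivalent DCs, gated as CD172- CD24+ CD11blow. Each of the 4 groups (wt CD4-equivalent, wt CD8-equivalent, ko CD4-equivalent and ko CD8-equivalent) was hybridised to 1 Affymetrix array. Neither the number of mice nor that of cultures per array is given, mouse ages are not given either, and the deletion is not limited to a cell type in the labels.

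Hoxa9 and its neighbours in the HOXA cluster are homeodomain transcription factors that are active in haematopoietic stem and progenitor cells and are turned down as blood cells mature. Meis1 binds DNA together with HOX and PBX proteins, and the pair of Hoxa9 and Meis1 is best known for driving acute leukaemia when it stays on. Igf2bp3 belongs to the fetal programme of blood formation, Myb and Sox4 sustain immature blood cells, and Cd34 marks progenitors. miR-142 is a microRNA expressed throughout the blood lineages.

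The microRNA removed in the ko, and the one encoded inside the HOXA cluster between Hoxa9 and Hoxa10, are shown as RefSeq gives them on the mouse build GRCm38.p6, with the seed (bases 2 to 8, which pair with target RNAs) in capitals. The first pair lies on the plus strand at chr11:87756903-87756925 and chr11:87756867-87756887, and the third on the minus strand at chr6:52230129-52230150.
mmu-miR-142a-3p: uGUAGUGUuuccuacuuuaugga
mmu-miR-142a-5p: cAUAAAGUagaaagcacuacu
mmu-miR-196b-5p: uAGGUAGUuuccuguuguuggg
The 3 seeds differ from each other. The probe set of Mir142 read 10.37 on the wt CD4-equivalent array and 9.87 on the wt CD8-equivalent array, against 4.92 and 4.79 on the ko arrays, so the genotype labels held on all 4. Values here and below are log2 expression values, on which a difference of 1 is a 2-fold change.

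A gene was compared in a subset when the higher of its wt and ko values reached a floor of 5.68, the median of all single-symbol probe sets, and 9774 to 9821 genes per array lay at or above that floor. Among sorting markers, Sirpa, which encodes CD172a, read 12.11 and 11.92 in the CD4-equivalent arrays (wt, then ko) against 9.69 and 9.67 in the CD8-equivalent arrays, as the gates require. Itgam, which encodes CD11b, read 12.02 and 11.76 in the CD4-equivalent arrays (wt, then ko) against 10.01 and 9.89 in the CD8-equivalent arrays. Cd24a, also a gate gene, separated the wt arrays (10.98 CD4-equivalent, 12.76 CD8-equivalent) by more than the ko arrays (11.98 and 12.72). Clec9a, a lectin of cDC1 cells, the conventional DC class that CD8-equivalent cells stand for, read 7.78 and 10.89 in wt but 10.85 and 11.15 in ko, so for both genes the gap between the subsets was smaller in ko than in wt. The ko CD4-equivalent array stood apart for granulocyte genes: 14 neutrophil markers summed, as unlogged values, to 4301 on it, against 1092, 429 and 569 on the wt CD4-equivalent, wt CD8-equivalent and ko CD8-equivalent arrays. On that array 12 of those 14 markers reached the floor, with Camp and Ly6g below it on every array. The same array also carried more of the cDC1 list than its wt counterpart (20065 against 12434). In bulk RNA, a larger share of some other cell type and more RNA per cell cannot be told apart. Every genotype difference below is therefore given for each subset separately, so that the CD8-equivalent difference stands without the ko CD4-equivalent array. This holds for the differences only. All limma p-values below, for genotype and for subset, come from a fit to all arrays, the ko CD4-equivalent array included. The subset differences in ko also rest on that array. The CD8-equivalent pair differed in cell type markers too. Of 11 monocyte and macrophage markers compared there, 6 were at least 2-fold lower in ko, where 1.0% of all genes were.

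Hoxa9, Eya1, Igf2bp3 and Skida1 were at least 2-fold higher in ko than in wt DCs in both subsets. Of the 10 genes, 9 could be compared in each subset, and Hoxa10 lay below the floor on every array. In CD4-equivalent DCs 5 of the 9 were at least 2-fold higher in ko (Hoxa9, Eya1, Igf2bp3, Skida1 and Myb), where 1.39% of all 9978 genes compared were. In CD8-equivalent DCs 5 of the 9 were (Hoxa9, Meis1, Eya1, Igf2bp3 and Skida1), where 1.14% of 9972 genes were. The share of all genes that passed in both subsets was 0.412%, against 4 of the 9. None of the 9 was at least 2-fold lower in either subset, as 0.952% of all genes were in CD4-equivalent DCs and 1.0% were in CD8-equivalent DCs. Over the 9, the median ko minus wt difference came to 1.11 for CD4-equivalent DCs and 1.66 for CD8-equivalent DCs, beside -0.08 and 0.004 over all genes compared. Since the genes were chosen on this contrast, nothing is read from these shares. In 6 of the 9 (Hoxa9, Hoxa7, Meis1, Eya1, Igf2bp3 and Skida1) both ko arrays lay above both wt arrays, an arrangement that 9.79% of 10239 genes at the floor showed.

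**Figure D1:**
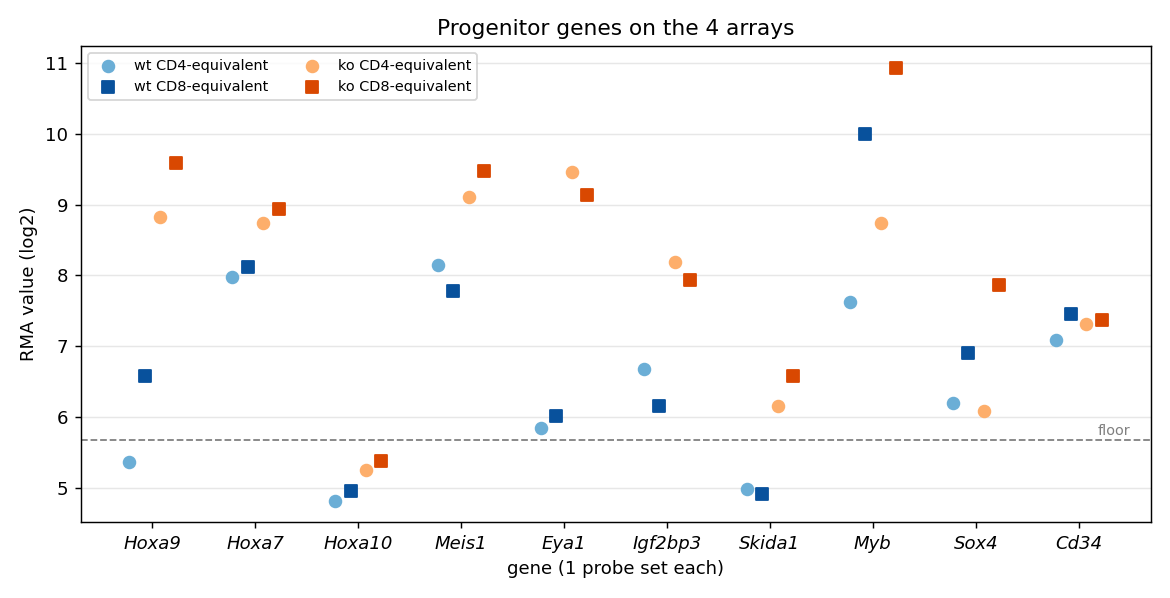
Log2 expression (vertical axis) of each of the 10 genes on the 4 arrays, 1 point per array with no replicates, and the floor of 5.68 as a line. Hoxa9 and Eya1 show the widest gaps between wt and ko points, Myb separates CD8- from CD4-equivalent arrays in both genotypes, and Hoxa10 lies under the floor throughout.

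Hoxa9, the homeobox gene most closely tied to myeloid progenitors, read 5.36 in wt CD4-equivalent, 6.57 in wt CD8-equivalent, 8.82 in ko CD4-equivalent and 9.59 in ko CD8-equivalent DCs. The wt CD4-equivalent value lay below the floor, and both ko values lay well above both wt values. The ko minus wt difference was 3.46 in CD4-equivalent DCs (11.0-fold), ranked 5 among 9978 genes, and 3.02 in CD8-equivalent DCs (8.09-fold), ranked 3 among 9972. Because RMA compresses differences near background, a ratio taken from a value below the floor is imprecise.

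Within each genotype the CD8-equivalent array also read higher for Hoxa9 than the CD4-equivalent array. That contrast was not used to choose the genes and was tested with limma on all 4 arrays, the genotypes serving as replicates of the subset difference. The difference was 1.21 in wt and 0.77 in ko, with a mean of 0.99 ± 0.15 (SE), and it passed the test (limma, Benjamini-Hochberg adjusted p = 0.022). The same test called 7.98% of 10239 genes higher and 6.35% lower in CD8-equivalent DCs, and 3 of the 9 members at the floor higher (Hoxa9, Myb and Sox4) and 0 lower. The fit has 1 residual degree of freedom, so its p-values are approximate and cover no more than the scatter among these 4 arrays, which may be technical. At 2-fold, Hoxa9 and Myb were higher in CD8-equivalent DCs of wt, as 2.1% of 9998 genes were, and Myb and Sox4 were in ko, as 3.39% of 10118 genes were.

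Hoxa7, a homeobox gene beside Hoxa9 in the cluster, read 7.97 and 8.12 in wt CD4- and CD8-equivalent DCs and 8.74 and 8.94 in the corresponding ko DCs. Both ko values exceeded both wt values, by margins under 2-fold: the difference was 0.77 in CD4-equivalent (1.70-fold) and 0.82 in CD8-equivalent DCs (1.77-fold). Its subset difference of 0.17 ± 0.12 (SE) missed the threshold (limma adjusted p = 0.36).

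Hoxa10, the next HOXA gene on the far side of Hoxa9, read 4.82 and 4.95 in wt and 5.25 and 5.38 in ko CD4- and CD8-equivalent DCs. All 4 values lay below the floor, so it was not counted in any comparison, although the ko values were 0.43 above the wt values in both subsets.

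The promoters of Hoxa9 and Hoxa7 are shown because these neighbouring genes were the HOXA members above the floor and both read higher in ko. Each sequence holds the 250 bases upstream of the annotated start, from RefSeq on GRCm38.p6, minus strand, at chr6:52227371-52227620 for Hoxa9 and chr6:52218574-52218823 for Hoxa7. Capitals mark the only motif match, the MYB core AACTG read on the opposite strand.
Hoxa9: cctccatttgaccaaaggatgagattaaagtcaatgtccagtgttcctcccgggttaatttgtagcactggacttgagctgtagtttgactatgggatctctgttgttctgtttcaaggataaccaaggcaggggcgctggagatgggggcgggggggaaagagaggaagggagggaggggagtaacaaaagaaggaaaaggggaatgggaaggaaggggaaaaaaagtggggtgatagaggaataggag
Hoxa7: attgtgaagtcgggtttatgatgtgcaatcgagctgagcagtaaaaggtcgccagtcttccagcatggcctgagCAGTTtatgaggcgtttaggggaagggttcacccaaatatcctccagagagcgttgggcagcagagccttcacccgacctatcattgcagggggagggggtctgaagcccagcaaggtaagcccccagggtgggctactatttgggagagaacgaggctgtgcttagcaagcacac
The Hoxa9 stretch has a GC content of 49.6% with 3 CpG pairs and the Hoxa7 stretch 54.8% with 7, beside medians of 52.4% and 6 over 32851 RefSeq promoters. Both strands were searched for 6 motifs. The MEIS motif TGACAG occurs in 15.9% of all those promoters, and the joint HOX and PBX motif TGATTNAT in 2.82%. The MYB core AACTG occurs in 39.1% and its other form AACGG in 14.5%. The PU.1 motif GAGGAAGT occurs in 2.44% and the TATA box TATAAA in 12.4%. A match says only that the letters are present. RefSeq promoters were found for 8 of the 10 genes. Besides Hoxa7, motif matches fell only in the downstream one of the 2 listed Hoxa10 promoters, with 2 of AACTG and 1 of TATAAA. The promoters of Meis1, Igf2bp3, Myb, Sox4 and Cd34 held 0 matches. The Myb promoter was the richest in GC of these, with 81.2% and 40 CpG pairs.

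Other genes of the HOXA cluster were also higher in ko, but none passed the genotype test. Besides the members, 7 HOXA genes were read and 4 reached the floor (Hoxa3, Hoxa4, Hoxa5 and Hoxa6). Hoxa5 read 6.00 and 6.29 in wt and 6.90 and 7.62 in ko CD4- and CD8-equivalent DCs, a difference of 0.89 and 1.32 (limma adjusted p = 0.067). Hoxa6 read 5.54 and 5.62 in wt and 6.25 and 7.20 in ko, a difference of 0.72 and 1.58 (limma adjusted p = 0.12). Hoxa5 and Hoxa6 differed more in CD8-equivalent DCs, a contrast that was not tested. Hoxa3 differed by 0.91 and 0.90 (limma adjusted p = 0.061) and Hoxa4 by 0.36 and 0.37 (adjusted p = 0.25). In 6 of the 7, Hoxa2 and Hoxa11 included, both ko arrays lay above both wt arrays, where 14.1% of all 19938 genes did with no floor applied. The lead of Hoxa11, 0.09 and 0.06 at values below the floor, was lost when the arrays were rescaled by cyclic loess, while Hoxa13 (-0.14 and -0.11) lay below. The medians over the 7 were 0.36 and 0.75. limma called 0 of the 4 at the floor. All 4 had an unadjusted p under 0.05 and were higher in ko, as 7.34% of all genes tested were while 8.27% were lower. Hoxa3 and Hoxa6 reached the floor only through their ko arrays, so they had to read higher there to be tested, and nothing is read from the 4. With a trended and robust prior limma called 1, Hoxa5 (adjusted p = 0.025), where it called 1.74% of all genes higher and 1.26% lower.

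Genes at both edges of the cluster did not share the pattern. At one edge, the adaptor Skap2 differed by -0.24 and -0.20 (limma adjusted p = 0.43) and the sorting nexin Snx10 by -0.04 and -0.37. Beyond Hoxa13, the homeobox gene Evx1 differed by 0.04 and 0.004, below the floor, and the enzyme gene Hibadh by 0.03 and 0.21. Farther out, Tax1bp1 differed by 0.09 and 0.33 (limma adjusted p = 0.51). Skap2 and Tax1bp1 had the largest mean differences among the edge genes at the floor. Mir196b, the hairpin of the third sequence above, read 4.70 and 4.48 in wt and 4.73 and 5.36 in ko CD4- and CD8-equivalent DCs, below the floor on all arrays. In the other HOX clusters, 27 of 28 HOXB, HOXC and HOXD genes were measured. Their values ran from 4.23 to 6.19 and only Hoxb3 and Hoxb4 reached the floor. Their differences ran from -0.16 to 0.24 in CD4-equivalent and from -0.26 to 0.32 in CD8-equivalent DCs, and no ratio is read from values below the floor.

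**Figure D2:**
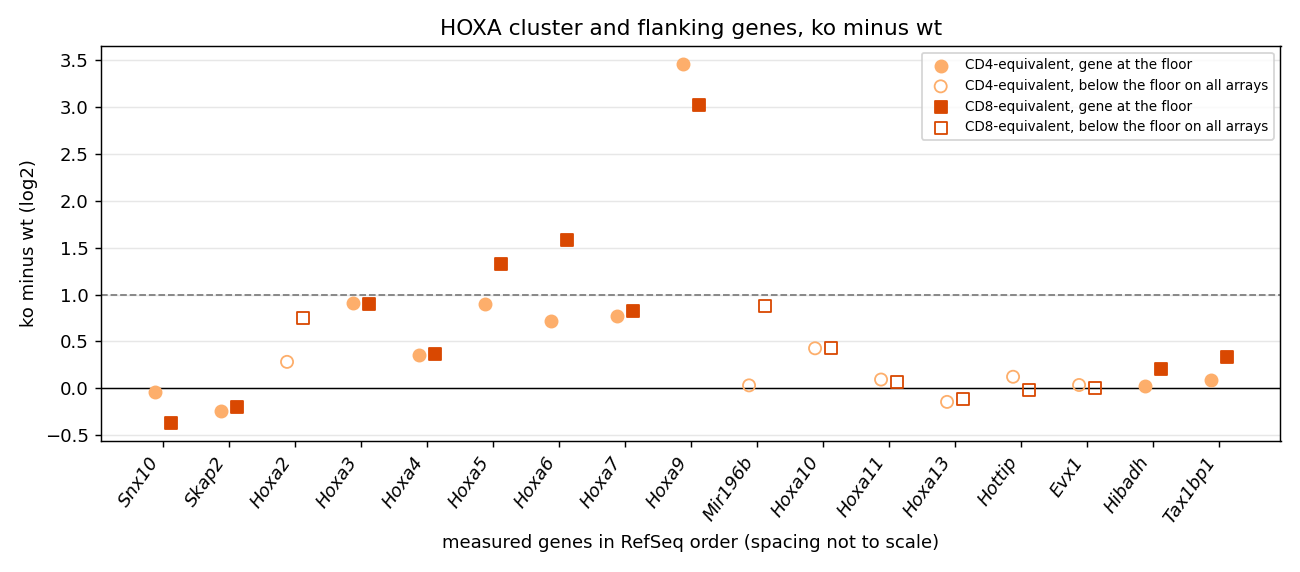
Ko minus wt difference (log2, vertical axis) of the genes measured in and around the HOXA cluster, in RefSeq order along the chromosome (horizontal axis, not to distance), in CD4- and CD8-equivalent DCs, with open symbols for genes below the floor on all arrays and a dashed line at the 2-fold mark. Hoxa9 stands at 3.46 and 3.02 among HOXA genes between -0.14 and 1.58, and the genes outside the cluster lie between -0.37 and 0.33.

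Meis1, the TALE homeodomain cofactor that binds DNA with HOX proteins, read 8.15 in wt CD4-equivalent, 7.78 in wt CD8-equivalent, 9.11 in ko CD4-equivalent and 9.47 in ko CD8-equivalent DCs. Both ko values lay above both wt values. The difference was 0.95 in CD4-equivalent (1.94-fold, just short of the 2-fold mark) and 1.70 in CD8-equivalent DCs (3.25-fold), 0.74 more in the latter, which was not tested. In wt DCs Meis1 was 0.38 lower in the CD8-equivalent array and in ko DCs 0.37 higher, so that the mean subset difference was -0.004 ± 0.20 (SE; limma adjusted p = 0.99). The other TALE genes at the floor stayed under 2-fold. Of 10 listed, 9 were measured and 6 reached the floor, with 0 at 2-fold in either subset. Of all genes compared, 1.39% were higher in ko CD4-equivalent and 1.14% in ko CD8-equivalent DCs. limma called 0 of the 6 for genotype, with 0 at an unadjusted p under 0.05, where 7.34% of all genes were higher and 8.27% lower. Counts of 0 among 6 lie near these shares, so no contrast with Meis1 is read from them. The widest means belonged to Tgif1 (-0.12 and -0.32) and Tgif2 (0.10 and 0.31), and the Meis1 partners Pbx2 (-0.06 and -0.10) and Pbx3 (0.18 and -0.23), named after their values were seen, lay near 0.

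Eya1, a transcriptional coactivator with phosphatase activity that acts with homeodomain proteins of the sine oculis family in organ development, read 5.84 and 6.02 in wt and 9.46 and 9.14 in ko CD4- and CD8-equivalent DCs. The wt values lay just above the floor, and the ko values were more than 3 log2 units above them in both subsets. The difference was 3.61 in CD4-equivalent (12.2-fold, rank 4) and 3.12 in CD8-equivalent DCs (8.70-fold, rank 2). The subset difference was 0.17 in wt and -0.32 in ko, with a mean of -0.07 ± 0.16 (SE; limma adjusted p = 0.79). Of the EYA, sine oculis and DACH genes listed around it, 10 of 11 were measured and 1 reached the floor, Eya3, which differed by -0.13 and -0.03 (limma adjusted p = 0.81).

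Igf2bp3, an RNA-binding protein of the fetal blood programme, read 6.67 in wt CD4-equivalent, 6.15 in wt CD8-equivalent, 8.19 in ko CD4-equivalent and 7.94 in ko CD8-equivalent DCs. Both ko values exceeded both wt values, and the CD8-equivalent value was the lower one in each genotype. The genotype difference was 1.52 (2.87-fold) in CD4-equivalent and 1.79 (3.46-fold) in CD8-equivalent DCs. The subset difference of -0.52 in wt and -0.25 in ko averaged -0.39 ± 0.13 (SE), which missed the threshold (limma adjusted p = 0.11). Among 16 other genes of fetal haematopoiesis or the IGF2BP family, 13 were measured and only 2 reached the floor, the growth factor receptor Igf1r (-0.84 and -0.03) and the transcription factor Arid3a (-0.22 and 0.21). limma called neither for genotype, and neither had an unadjusted p under 0.05. Igf2bp3 lies on the same chromosome as the HOXA cluster. Of 17 measured genes between them, 11 reached the floor, with medians of -0.04 and 0.06. At least 2-fold higher in ko were 0 in either subset, where 1.39% and 1.14% of all genes compared were.

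Skida1, a nuclear protein of the SKI and DACH domain family, read 4.98 and 4.92 in wt and 6.15 and 6.57 in ko CD4- and CD8-equivalent DCs. The wt values lay below the floor and the ko values above it. The difference was 1.17 in CD4-equivalent (2.25-fold) and 1.66 in CD8-equivalent DCs (3.16-fold). Because Skida1 reached the floor only through its ko arrays, it had to read higher there to be compared at all. Its neighbour Mllt10, a cofactor of histone methylation, differed by 0.17 and 0.46. The subset difference of Skida1 was 0.18 on average (limma adjusted p = 0.48).

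Genes next to the members along the chromosome were compared in the same way. Around Meis1, Eya1, Igf2bp3, Skida1, Myb, Sox4 and Cd34, 69 measured genes (up to 5 on each side) were read, of which 38 reached the floor. None of the 38 was at least 2-fold higher in ko in either subset, where 1.39% (CD4-equivalent) and 1.14% (CD8-equivalent) of all genes compared were. At such shares 0 of 38 is an ordinary count, so nothing is read from it. A pair of the 38 was at least 2-fold lower in 1 subset: Gpnmb near Igf2bp3 (-0.50 and -1.83) and Plxdc2 near Skida1 (-1.11 and 0.04). In CD8-equivalent DCs the neighbours of Skida1 at the floor differed by 0.04 to 0.55, all higher in ko. Those of Myb differed there by -0.42 to 0.65.

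**Figure D3:**
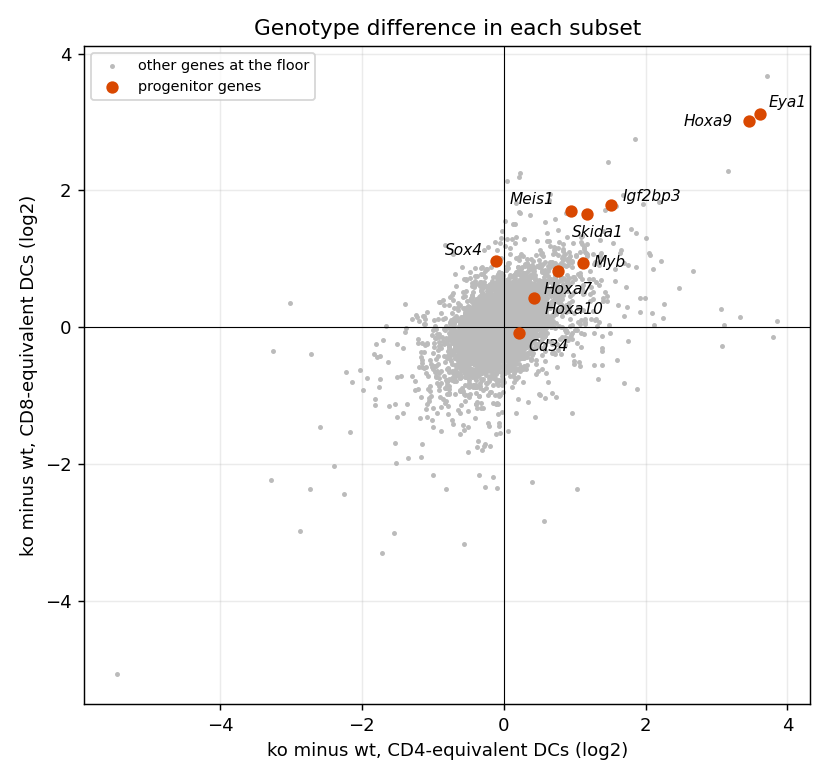
Ko minus wt difference (log2) in CD4-equivalent (horizontal axis) against CD8-equivalent DCs (vertical axis) for all genes at the floor in grey and the 10 genes in orange, Hoxa10 included although it lies below the floor. Hoxa9 and Eya1 lie at the upper right, Sox4 at -0.11 and 0.97, and Cd34 near the origin at 0.22 and -0.09.

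Myb, a transcription factor that keeps blood progenitors dividing, read 7.63 in wt CD4-equivalent, 10.00 in wt CD8-equivalent, 8.74 in ko CD4-equivalent and 10.93 in ko CD8-equivalent DCs. The arrays were ordered by subset first and genotype second, so the wt CD8-equivalent value exceeded the ko CD4-equivalent value. The subset difference was 2.37 in wt (5.18-fold) and 2.20 in ko (4.58-fold), with a mean of 2.28 ± 0.12 (SE; limma adjusted p = 0.0029). The genotype difference was 1.11 in CD4-equivalent (2.16-fold) and 0.94 in CD8-equivalent DCs (1.91-fold).

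Sox4, an SRY-box transcription factor of lymphoid and myeloid precursors, read 6.19 in wt CD4-equivalent, 6.90 in wt CD8-equivalent, 6.08 in ko CD4-equivalent and 7.87 in ko CD8-equivalent DCs. Its ko CD8-equivalent value stood above the other 3, and the ko CD4-equivalent value was the lowest. Ko and wt differed by -0.11 in the CD4-equivalent DCs and by 0.97 in the CD8-equivalent DCs (1.96-fold). The subset difference of 0.70 in wt (1.63-fold) and 1.79 in ko (3.45-fold) averaged 1.24 ± 0.27 (SE), which passed narrowly (limma adjusted p = 0.044) and no longer did when genes under the floor were tested too (adjusted p = 0.10).

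Cd34, a sialomucin on stem and progenitor cells, read 7.09 and 7.46 in wt and 7.31 and 7.37 in ko CD4- and CD8-equivalent DCs. These values overlapped between the genotypes, with differences of 0.22 and -0.09. The subset difference was 0.36 in wt and 0.06 in ko, a mean of 0.21 that missed the threshold (limma adjusted p = 0.34).

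In sum, markers of plasmacytoid DCs, a DC class that also arises in Flt3-L culture, varied over the arrays in the same order as Myb. Their summed unlogged values over 10 measured markers were 6028, 10573, 12271 and 14581 for wt CD4-, ko CD4-, wt CD8- and ko CD8-equivalent DCs. The lectin gene Siglech read 9.88, 11.28, 11.34 and 11.76 in that order, and the chemokine receptor gene Ccr9 6.59, 9.06, 9.52 and 10.10. Ly6d, on the same list, read 5.61, 5.76, 9.39 and 8.90, so not every marker kept the order of the sum. The part of plasmacytoid DC RNA in the values of Myb and Sox4 was not tested. The monocyte and macrophage list summed to 29806 and 28722 on the wt and ko CD4-equivalent arrays and to 18057 and 11806 on the CD8-equivalent ones. B cell markers summed to between 1247 and 1464. Of 9 measured, 2, 3, 2 and 4 reached the floor on the wt CD4-, wt CD8-, ko CD4- and ko CD8-equivalent arrays. Cd79a, Ms4a1 and Pax5 lay below it on all arrays. In CD4-equivalent DCs 1 of the 2 compared was at least 2-fold higher in ko, where 1.39% of all genes were. T and NK cell markers summed to between 256 and 502, with Cd3e below the floor on all arrays. Erythroid and megakaryocyte markers (254 to 326) and mast cell, basophil and eosinophil markers (427 to 526) lay as low.

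**Figure D4:**
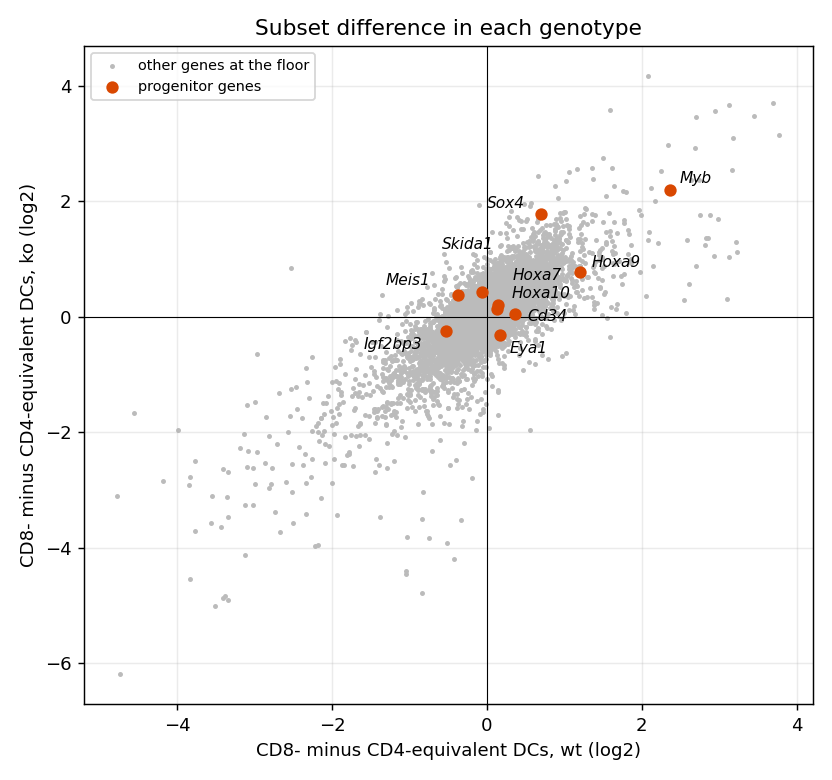
CD8- minus CD4-equivalent difference (log2) in wt (horizontal axis) against ko DCs (vertical axis) for all genes at the floor in grey and the 10 genes in orange. Myb lies at 2.37 and 2.20, Hoxa9 at 1.21 and 0.77, Sox4 at 0.70 and 1.79, and the other genes lie near the origin.

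**Figure D5:**
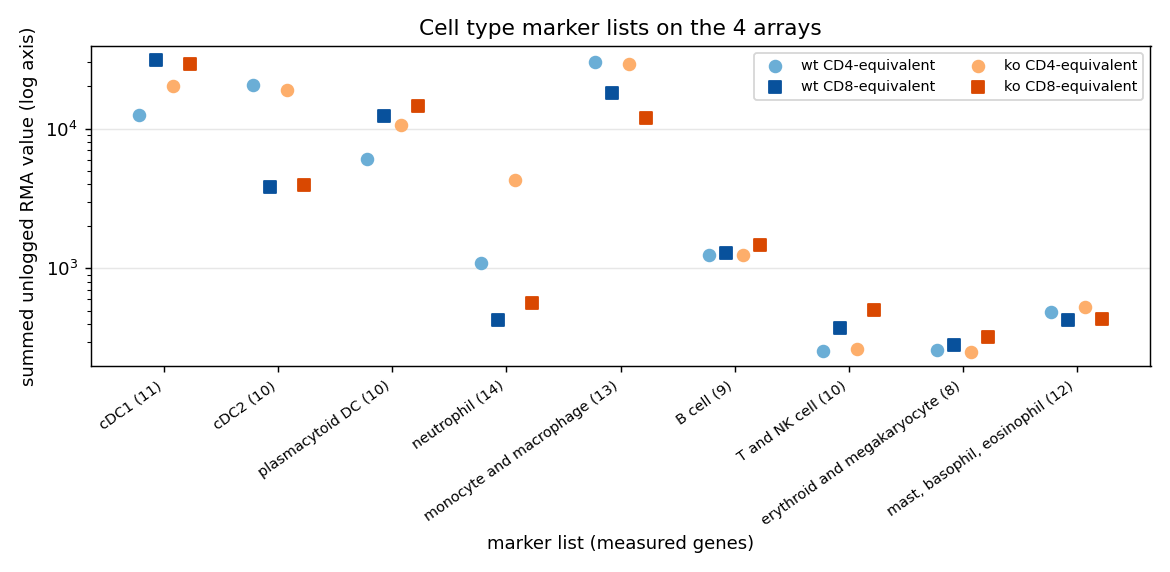
Summed unlogged expression values (vertical axis, log scale) of the cell type marker lists on the 4 arrays, 1 value per array. The neutrophil list is highest on the ko CD4-equivalent array at 4301, and the plasmacytoid DC list runs from 6028 to 14581.

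Other genes of the same pathways mostly stayed under 2-fold. Outside the members, 11 lists held 203 genes, of which 185 were measured and 98 reached the floor on some array. At 2-fold, 3 of 94 compared were higher and 1 lower in ko CD4-equivalent DCs, where 1.39% of all genes were higher and 0.952% lower. In ko CD8-equivalent DCs 9 of 96 were higher and 1 lower, where 1.14% and 1.0% of all genes were. limma called 0 of the 98 for genotype, where 0.107% of 10239 genes were called higher and 0.0586% lower. At an unadjusted p under 0.05, 20 of the 98 were higher and 6 lower in ko, against 7.34% and 8.27% of all genes. With a trended and robust prior limma called 6 of the 98 higher and 2 lower, against 1.74% and 1.26% of all genes. Genes that reached the floor only through 1 group are among these counts, and the lists were chosen with earlier results known, so nothing particular to them is read from the shares. Across subsets, limma called 14 of the 98 higher and 5 lower in CD8-equivalent DCs, against 7.98% and 6.35% of all genes.

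The regulators that write or read HOX gene chromatin, such as the KMT2A (MLL) and Polycomb complexes, were measured in full. Of 31, 28 reached the floor, and 0 were 2-fold different in either subset. Of all genes compared, 1.39% were higher and 0.952% lower in ko CD4-equivalent DCs, and 1.14% and 1.0% in ko CD8-equivalent DCs. The count of 0 lies near these shares, so nothing particular to the regulators is read from it. limma called 0 for genotype, with 3 higher and 1 lower at an unadjusted p under 0.05, against 7.34% and 8.27% of all genes. Mllt3, a partner of KMT2A fusions, read 8.44 and 8.96 in wt and 7.91 and 8.23 in ko CD4- and CD8-equivalent DCs, a difference of -0.52 and -0.74 (limma adjusted p = 0.13). Bmi1, a Polycomb subunit of self-renewing cells, read 8.76 and 9.01 in wt and 9.14 and 9.55 in ko, a difference of 0.38 and 0.55 (limma adjusted p = 0.19).

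Among 30 progenitor transcription factors besides Myb, Sox4 and Skida1, 29 were measured and 18 reached the floor, and limma called 0 for genotype (3 higher and 1 lower at an unadjusted p under 0.05). Gfi1b, a repressor active in stem and erythroid cells, read 6.25 and 7.61 in wt and 6.90 and 9.46 in ko CD4- and CD8-equivalent DCs, a genotype difference of 0.65 and 1.86 (limma adjusted p = 0.16) and a subset difference of 1.36 and 2.57 (adjusted p = 0.021). The Ikaros family gene Ikzf2 differed by 0.94 and 0.45 (limma adjusted p = 0.16). Of genes named after their values were seen, the erythroid factor Nfe2 differed by -1.24 in CD4-equivalent DCs, where its ko value of 5.82 lay just above the floor. Its CD8-equivalent values, 5.24 in wt and 5.41 in ko, lay below the floor, so it was not compared there.

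Of 26 progenitor surface and secreted genes besides Cd34, 23 were measured and 13 reached the floor. In ko CD8-equivalent DCs 3 of 13 compared were at least 2-fold higher, where 1.14% of all genes were. In ko CD4-equivalent DCs 1 of 11 was, where 1.39% of all genes were. Adgrg1, an adhesion receptor of stem cells, read 5.30 and 8.74 in wt and 6.44 and 9.92 in ko CD4- and CD8-equivalent DCs. Its genotype difference of 1.14 and 1.17 just missed the threshold (limma adjusted p = 0.053), and its subset difference of 3.44 in wt and 3.48 in ko passed (adjusted p = 0.0018). The other 2, named after their values were seen, were the costimulatory receptor Cd27 (0.58 and 1.53) and the protease Cpa3 of mast cell precursors (0.56 and 1.03). Cpa3 reached the floor only on the ko CD8-equivalent array, so it had to read higher there, and both its CD4-equivalent values lay below the floor. In CD4-equivalent DCs Adgrg1 and Cd27 were compared only through their ko values, which fixes their direction there. The kinase receptors Kit (0.13 and -0.60) and Flt3 (-0.29 and 0.16), which mark progenitors beside Cd34 and were likewise chosen afterwards, stayed under 2-fold.

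Azurophil granule enzymes, made at the promyelocyte stage, were the list with the highest median in CD4-equivalent DCs: 0.97 there, against 0.38 in CD8-equivalent DCs, over 5 genes compared in each. Of 8 listed, 7 were measured and 6 reached the floor. In each subset 2 differed by 2-fold or more, both higher in ko, and limma called 0 for genotype (4 higher at an unadjusted p under 0.05). Mpo, myeloperoxidase, read 5.18 and 4.79 in wt and 7.02 and 7.55 in ko CD4- and CD8-equivalent DCs, a difference of 1.85 and 2.76 (limma adjusted p = 0.053). Mpo reached the floor only through its ko arrays, and Elane only on the ko CD4-equivalent array. Both had to read higher there to be tested, so nothing is read from the median or the counts of this list. Of genes named after their values were seen, Prtn3 differed by 1.22 and 0.38 and Ctsg by 0.97 and 1.69, while Prss57 differed by 0.05 and -0.03. Both CD4-equivalent values of Prss57 lay below the floor. Of the neutrophil markers above, which include Mpo and Elane, 9 of the 12 compared were at least 2-fold above their wt values on the ko CD4-equivalent array. The share of all genes compared there was 1.39%. Of those 12, 8 reached the floor only through the ko array, which fixes their direction. In CD8-equivalent DCs Mpo alone could be compared, likewise through its ko array. The part of neutrophil RNA in the granule gene values was not tested.

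Genes reported to respond to Hoxa9 or Meis1 in leukaemia models went both ways. Of 21 such genes besides the members, 18 were measured and 15 reached the floor. In CD8-equivalent DCs 1 was at least 2-fold higher and 1 lower, and limma called 0 for genotype (3 higher and 2 lower at an unadjusted p under 0.05). The chemokine gene Ccl3 read 10.91 and 8.93 in wt and 11.60 and 9.87 in ko CD4- and CD8-equivalent DCs, a difference of 0.69 and 0.95 (limma adjusted p = 0.084). The cytokine receptor gene Csf2rb read 11.87 and 11.35 in wt and 11.32 and 10.27 in ko, a difference of -0.55 and -1.08 (limma adjusted p = 0.13). Mn1, a leukaemia coactivator named after its values were seen, differed by -0.27 and 1.12, and the cell cycle kinase Cdk6 by 0.37 and 0.75. Of 13 reported Myb targets besides Cd34, 12 were measured and 10 reached the floor. Only Mpo was at least 2-fold higher in ko, in both subsets, and limma called 0 for genotype (2 higher at an unadjusted p under 0.05) but 4 of the 10 higher in CD8-equivalent DCs, where 7.98% of all genes were.

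Likeness to a member was measured as the distance between log2 values centred over the 4 arrays, among 10238 other genes at the floor, where a smaller distance means a more similar pattern. The nearest to Hoxa9 were Rnf43 at 0.97, Eya1 at 1.07, Chrm3 at 1.38, Mpo at 1.47 and Mid1 at 1.54, beside a median of 3.42. Rnf43, a membrane ligase that takes Wnt receptors off the cell surface, read 5.46 and 5.64 in wt and 9.18 and 9.32 in ko CD4- and CD8-equivalent DCs. The nearest to Meis1 were Skida1 at 0.24, Bpnt2 at 0.35, and Cfl2, Tanc2 and Cd151 at 0.43 each, beside a median of 1.45. The nearest to Myb were Prkca at 0.43, Igfbp4 at 0.45, Chst11 at 0.48, and Adgrg3 and Cox6a2 at 0.59 each, beside a median of 2.47. Cox6a2 stands on the plasmacytoid DC list. Cd34, which varied little over the arrays, lay nearest to Lmf2, at 0.011, then Mrpl22, Selenoi, Litaf and Fdft1, up to 0.034, beside a median of 0.42. These are descriptions over 4 arrays.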

How the data were processed

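The deposited values are log2 expression values per probe set and array, made by the authors with RMA and Partek per the submitters' processing notes. The sources used here give no versions, and the log base was inferred from the values. Of 35399 probe sets, 21789 carry 1 gene symbol in the platform annotation of 2016, 1621 several and 11989 none. Only the first kind was used, with the highest-mean probe set per gene. Genotype and subset effects common to all arrays were fitted by limma 3.58.1 under R 4.3.3 (lmFit and eBayes, additive model, two-sided, Benjamini-Hochberg at 0.05) over 10239 genes that reached the floor of 5.68 on any array. The fit had 1 residual and 3.98 prior degrees of freedom. The interaction was given as a value. Arrays have no read depth, and their number limits the precision.

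The members and all gene lists were chosen with earlier results of these data known. Named besides the members were the other HOXA genes reported here; in each list, genes called for genotype or 2-fold different the same way in both subsets, or else the 2 with the largest mean differences; and the 5 nearest patterns of Hoxa9, Meis1, Myb and Cd34. Promoters and microRNAs came from RefSeq GRCm38.p6. Alternatives were no floor, a floor at the 60th percentile, cyclic loess rescaling, the mean of a gene's probe sets, and a trended and robust prior.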

Additional observations from a re-analysis of the deposited data

Results flagged for a closer look

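Some of the genes whose values are given here, and that reached the floor in both subsets, had genotype differences of opposite sign in the subsets. With 1 array per group, the difference between the subsets was not tested. For Sox4, ko minus wt came to -0.11 in the CD4-equivalent DCs and to 0.97 in the CD8-equivalent DCs, apart by 1.08 on the log2 scale. For Cd34 it was 0.22 and -0.09, apart by -0.31, and for the fetal B lineage factor Arid3a it was -0.22 and 0.21, apart by 0.44. Others, named after their values were seen, were Mn1 (-0.27 and 1.12, apart by 1.40), Kit (0.13 and -0.60, apart by -0.73), Flt3 (-0.29 and 0.16, apart by 0.45), Pbx3 (0.18 and -0.23, apart by -0.41) and Cd24a (1.00 and -0.04, apart by -1.05). The plasmacytoid DC marker Ly6d also differed both ways (0.14 and -0.49), with its wt CD4-equivalent value below the floor.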

How the results depend on the processing

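The count of members at least 2-fold higher in ko was 5 in each subset and stayed between 4 and 6 under every alternative run, and limma called 2 or 3 of them higher in CD8-equivalent DCs. With no floor, Sox4 kept its subset difference of 1.24 but missed the threshold (limma adjusted p = 0.10). Cyclic loess moved the interaction of Hoxa9 from -0.44 to -0.62, of Eya1 from -0.49 to -0.67 and of Cd34 from -0.31 to -0.48, and put Meis1 past 2-fold in CD4-equivalent DCs (1.07). It also moved the interaction of Igf2bp3 from 0.27 to 0.10 and of Hoxa7 from 0.06 to -0.09, and the CD4-equivalent difference of Hoxa7 from 0.77 to 0.89. Among the other pathway genes, those higher by 2-fold or more in ko CD4-equivalent DCs went from 3 to 1 with the higher floor (7.22) and to 5 with cyclic loess, and those lower from 1 to 0 with the higher floor. Genotype calls by limma went from 0 to 3 higher with the higher floor (Hoxa5, Adgrg1 and Mpo), which tests fewer genes. Hoxa5 and Mpo reached that floor only on the ko CD8-equivalent array, so they had to read higher there to be tested. With the trended and robust prior the calls went to 6 higher (Hoxa5, Adgrg1, Mpo, Egr1, Ctsg and Ccl3) and 2 lower (Hpgds and Csf2rb). No paired analysis was possible because the labels number no replicates and each group holds 1 array. The additive fit already compares genotypes within subsets and subsets within genotypes, and with 1 residual degree of freedom no array could be left out of it. Values near or below the floor, those of Hoxa10, Skida1 and wt Hoxa9 among them, are the least precise. No result reversed its direction where it was called.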
